A study of Rattus norvegicus with 12 samples.

Results

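The genes described here are 10 interferon-stimulated genes of the rat: Isg20, Ifi27l2b, Irf7, Mx1, Mx2, Oas1a, Isg15, Ifit2, Ifit3 and Rsad2. They were chosen by symbol, with earlier results of these data known. Counts of called or separated genes among them therefore describe this list only. All 10 were found in each of 12 RNA-seq libraries and passed the filter on low counts, out of 20152 genes listed in any library. The libraries were made from dorsal root ganglia, which hold the cell bodies of the sensory neurons that supply skin, muscle and viscera, of rats that received vehicle, paclitaxel at 2.0 mg/kg or oxaliplatin at 2.4 mg/kg, with 4 libraries in each group. Paclitaxel, which stabilises microtubules, and oxaliplatin, a platinum compound that damages DNA, were given into the peritoneal cavity as models of painful neuropathy. Paclitaxel was carried in DMSO and saline and oxaliplatin in glucose solution, and the single vehicle group is not described further in the labels. The labels used here give no strain, age or time of sampling, and they do not say that replicates came from separate animals. The spread behind each p-value is therefore that of these samples and may be technical.

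Interferons are secreted proteins that cells release when they sense foreign or misplaced nucleic acid. They bind receptors that signal through JAK kinases and STAT proteins, and the transcription factors this activates then switch on genes that carry an interferon-stimulated response element. Neurons, glia and immune cells can all respond in this way. Irf7 is a transcription factor that amplifies interferon production. Isg15 is a ubiquitin-like protein that is attached to other proteins. Mx1 and Mx2 are dynamin-like GTPases, Oas1a makes the oligoadenylates that activate RNase L, Ifit2 and Ifit3 belong to a family that restricts the translation of viral RNA, Rsad2 (viperin) makes a chain-terminating nucleotide, and Isg20 is an exonuclease of RNA. Ifi27l2b belongs to the Ifi27 family of small membrane proteins.

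The response element is shown as background to these genes, most of which varied together between libraries, as described below. Whether the element has a part in that was not tested. RefSeq promoter windows (assembly GRCr8, 250 bases before to 50 after an annotated start) were at hand for 6 of the 10 genes. Other starts of the same genes were not examined. The core of the response element was searched on both strands as GAAA, any 2 bases, GAAA, and was present in 5 of the 6 windows, which are printed below 5′ to 3′ on the strand of the gene, with the match in capitals and up to 35 bases on either side.
Isg20, chr1:142239932-142240011, plus strand: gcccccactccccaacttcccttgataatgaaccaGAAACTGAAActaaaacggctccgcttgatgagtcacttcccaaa
Irf7, chr1:205800048-205800127, minus strand: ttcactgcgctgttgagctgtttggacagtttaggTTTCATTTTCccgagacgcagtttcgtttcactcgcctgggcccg
Oas1a, chr12:41330390-41330465, plus strand: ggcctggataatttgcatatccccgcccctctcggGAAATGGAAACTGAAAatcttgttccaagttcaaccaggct
Ifit3, chr1:241527247-241527325, plus strand: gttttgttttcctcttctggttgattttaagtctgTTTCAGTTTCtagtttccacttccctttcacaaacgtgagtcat
Rsad2, chr6:48788223-48788302, minus strand: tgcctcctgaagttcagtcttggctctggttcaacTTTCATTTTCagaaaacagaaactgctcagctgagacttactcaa

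The capitals read TTTC first where the match lay on the opposite strand, as in Irf7, Ifit3 and Rsad2. Oas1a held 2 overlapping matches, from 41 to 26 bases before the start. The single matches lay nearest the start in Ifit3, at 44 to 35 bases before it, followed by Irf7 at 69 to 60, Isg20 at 92 to 83 and Rsad2 at 147 to 138. Mx1 had no match in its window, which says only that these letters are not there. The same pattern was found in 46 of 107 windows of other interferon pathway genes (43.0%) and in 1312 of 33469 windows of all genes (3.92%). A second pattern, TTCNNNGAA, the core of the element that binds STAT dimers, was found on either strand in 1 of the 6 windows (Oas1a, 199 bases before the start). It was found in 25 of 107 windows of the other pathway genes (23.4%) and in 2970 of all windows (8.87%). Isg20, which was higher after oxaliplatin, and Irf7, Oas1a and Ifit3, which were not called in any comparison, all held the first pattern.

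Levels between genes are compared on the FPKM scale, which divides by transcript length. In vehicle ganglia Ifi27l2b had a mean of 333 ± 20.2 FPKM (SD, n = 4), above 98.9% of all genes listed. Mx2 followed at 19.2 ± 2.01 FPKM, and the other 8 genes lay between 0.935 ± 0.199 FPKM in Ifit3 and 7.46 ± 0.637 FPKM in Irf7. Mx2 lay above 76.4% of the genes listed and Ifit3 above 28.6%, with the rest between these. Ifi27l2b was thus far above the others in vehicle ganglia. From high to low the order was Ifi27l2b, Mx2, Irf7, Isg15, Mx1, Oas1a, Ifit2, Rsad2, Isg20 and Ifit3. The ranges over the 4 vehicle libraries overlapped between Irf7 and Isg15, between Mx1 and Oas1a, between Oas1a and Ifit2 and between Ifit2 and Rsad2. No other neighbours in that order overlapped. After paclitaxel the means ran from 1.20 ± 1.24 FPKM in Ifit3 to 20.1 ± 4.93 FPKM in Mx2 and 313 ± 15.0 FPKM in Ifi27l2b. After oxaliplatin Irf7 reached 12.3 ± 7.68 FPKM, Isg15 11.2 ± 6.65 FPKM, Rsad2 5.4025 ± 1.33 FPKM and Isg20 4.13 ± 1.17 FPKM, with Ifi27l2b at 233 ± 16.9 FPKM. In both drug groups Ifi27l2b stayed apart at the top, and the ranges of all other neighbours in the order overlapped.

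Library totals ran from 17008728 to 17615736 estimated counts. A total of 15809 genes were tested. Neuronal markers (Tubb3, Uchl1, Prph and 8 others) summed to between 12927 and 28082 counts scaled to library size (CPM) in all libraries, so the neuronal markers of the labelled tissue were present. Values of single genes below are CPM after scaling for library composition, and differences are log2 fold changes ± standard error. Tests are edgeR's quasi-likelihood test, two-sided, with Benjamini-Hochberg adjustment over all tested genes, and the word called is used for an adjusted p under 0.05. The estimated counts of Mx1, Mx2, Oas1a and Ifit2 were not whole in any of the 12 libraries, which happens when reads are divided between similar genes. Their values are uncertain for that reason. The vehicle libraries enter both comparisons with vehicle, so the results of the 2 drugs are not independent of each other.

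After oxaliplatin, 2 of the 10 genes differed from vehicle, and they did so in opposite directions. Isg20 rose 2.57-fold and Ifi27l2b fell by 0.55 on the log2 scale. The background for this count is 1.76% of all genes tested, 1.05% called higher and 0.708% called lower. Over all genes that is 166 higher and 112 lower, and 189 and 63 when libraries were scaled by their totals only. Rsad2 was 2.09-fold higher without passing the test, and the other 7 genes had log2 fold changes from 0.09 to 0.68, none of them called.

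Isg20 measured 1.39, 1.52, 0.973 and 1.09 CPM in vehicle replicates 1 to 4. It measured 2.30, 1.47, 1.72 and 1.57 CPM after paclitaxel and 3.29, 2.53, 2.54 and 4.44 CPM after oxaliplatin. Every oxaliplatin library lay above every vehicle and every paclitaxel library. The mean went from 1.24 ± 0.254 CPM in vehicle to 3.20 ± 0.899 CPM after oxaliplatin (log2 fold change 1.36 ± 0.25, adjusted p = 0.0191, edgeR). Isg20 is a low gene, with 17 to 26 reads per vehicle library and 44 to 79 per oxaliplatin library. The call was lost without vehicle replicate 4 (adjusted p = 0.0769, edgeR) and without oxaliplatin replicate 1 (adjusted p = 0.0505), with log2 fold changes of 1.30 and 1.35. Isg20 is also expressed by blood cells. After oxaliplatin 9 of 9 erythroid and 8 of 8 B and plasma cell markers had values above 0, and 0 of 10 neutrophil, 1 of 4 T and NK cell and 3 of 15 macrophage markers did, with none called higher on any of these lists. The 9 erythroid markers summed to 14958, 6886, 16248 and 4811 CPM in oxaliplatin replicates 1 to 4, against 2248 to 4342 CPM in vehicle, and 8 markers of B and plasma cells to 75.8, 18.0, 73.9 and 25.2 CPM, against 15.8 to 20.6 CPM. Replicate 2 thus lay within the vehicle range for B and plasma cell markers. Replicate 4, with the highest Isg20 of all libraries, had the lowest erythroid sum of the 4 oxaliplatin libraries. Their part in the rise of Isg20 was not tested. In bulk tissue, more cells of a type and more RNA per cell cannot be told apart.

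Ifi27l2b measured 136, 155, 136 and 136 CPM in vehicle replicates 1 to 4 and 139, 129, 138 and 141 CPM after paclitaxel. After oxaliplatin it measured 98.7, 105.8, 89.6 and 89.9 CPM. The oxaliplatin libraries all lay below the other 8, and vehicle and paclitaxel overlapped. The mean was 141 ± 9.84 CPM in vehicle and 96.0 ± 7.79 CPM after oxaliplatin, a 1.47-fold lower level (log2 fold change -0.55 ± 0.08, adjusted p = 0.00369, edgeR). The call held in each of 22 alternative analyses, with log2 fold changes from -0.60 to -0.50. The 11 neuronal markers summed to between 19004 and 22149 CPM in vehicle and between 12927 and 17357 CPM after oxaliplatin. They were lower in the same libraries. After paclitaxel 11 of 11 neuronal markers had log2 fold changes above 0, with 0 called, and summed to between 18651 and 28082 CPM. Ifi27l2b had a log2 fold change of -0.04 ± 0.08 after paclitaxel. The part of neuronal cells in the fall of Ifi27l2b was not tested.

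Rsad2 measured 8.73, 8.13, 7.90 and 12.1 CPM in vehicle replicates 1 to 4 and 18.0, 14.2, 25.2 and 19.6 CPM after oxaliplatin. The groups did not overlap, but the adjusted p was 0.168 (edgeR; log2 fold change 1.06 ± 0.37). In all, 3 of the 10 genes had oxaliplatin libraries wholly above or below the vehicle libraries, against 11.3% of all genes tested, and the same 3 had an unadjusted p under 0.05, against 17.2%. After paclitaxel Rsad2 measured 4.11, 8.45, 20.2 and 9.53 CPM, so that the paclitaxel libraries lay on both sides of vehicle. Because the spread is shared by the 3 groups, that scatter enters the test against vehicle. With only the vehicle and oxaliplatin libraries in the fit the adjusted p was 0.0307 (edgeR), and DESeq2 on all libraries gave 0.0450. These were the only 2 of 22 alternatives that called Rsad2. It was called in 0 of 12 fits that left out a library, and the highest adjusted p over the alternatives was 0.318.

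**Figure D1:**
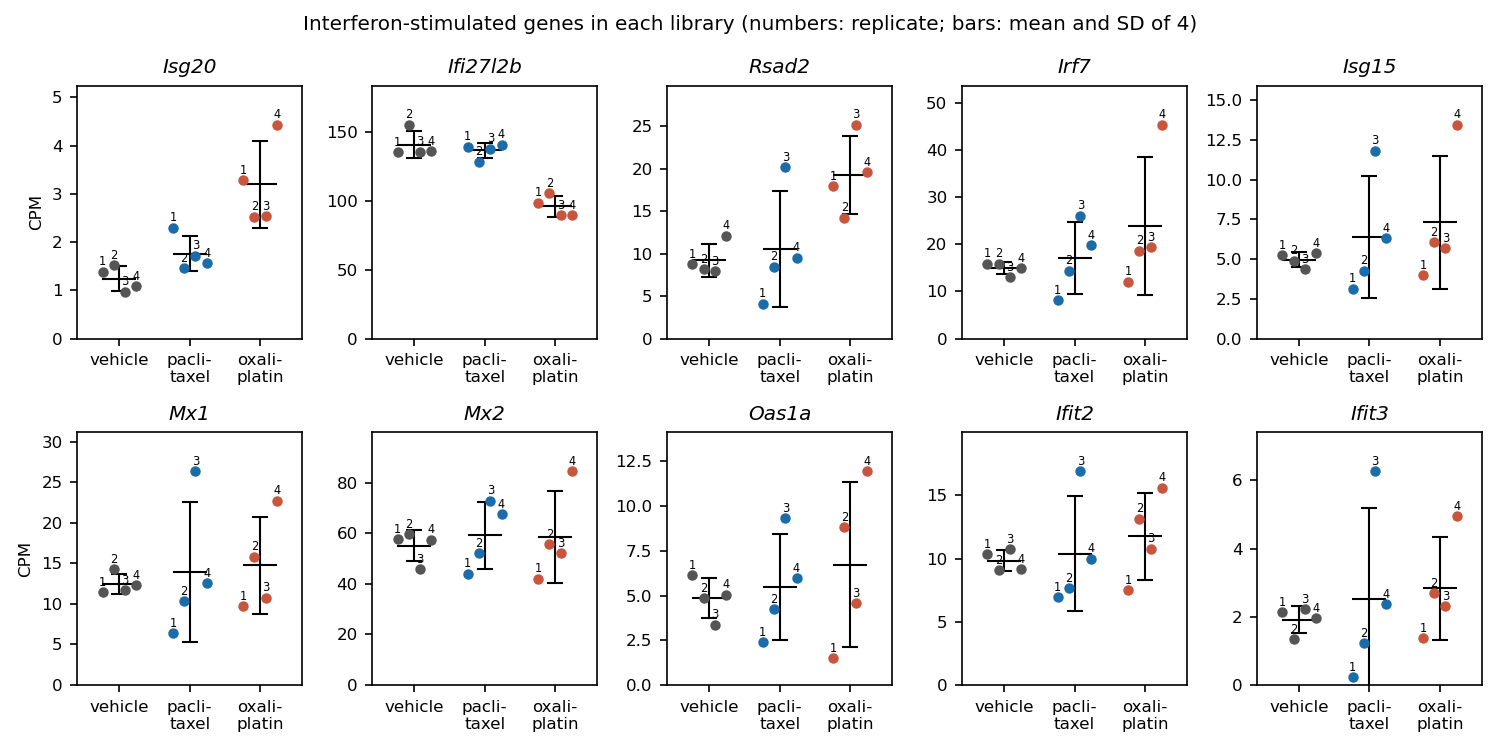
CPM of each of the 10 genes (vertical axes, each starting at 0) in the vehicle, paclitaxel and oxaliplatin groups; points are libraries with their replicate number, and bars are the mean and SD of 4, cut at 0 for Ifit3. The oxaliplatin libraries lie apart from vehicle for Isg20, Ifi27l2b and Rsad2, while the other genes scatter widely within each drug group.

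The other 7 genes differed more within a drug group than between groups. Irf7 measured 15.9, 15.9, 13.0 and 15.0 CPM in vehicle replicates 1 to 4, and 12.1, 18.7, 19.4 and 45.4 CPM after oxaliplatin (log2 fold change 0.68 ± 0.41, adjusted p = 0.429, edgeR). Its oxaliplatin range thus enclosed the whole vehicle range. Isg15 measured 5.26, 4.91, 4.35 and 5.395 CPM in vehicle and 3.98, 6.09, 5.70 and 13.5 CPM after oxaliplatin (0.56 ± 0.41). Among the effectors, Oas1a measured 6.13, 4.85, 3.38 and 5.05 CPM in vehicle and 1.501, 8.85, 4.57 and 11.97 CPM after oxaliplatin (0.47 ± 0.53). Its oxaliplatin libraries were both the lowest and the highest of all 12. The remaining log2 fold changes after oxaliplatin were 0.56 ± 0.65 for Ifit3, 0.26 ± 0.26 for Ifit2, 0.25 ± 0.38 for Mx1 and 0.09 ± 0.20 for Mx2. The standard errors were as large as the differences or larger for Oas1a, Ifit3, Ifit2, Mx1 and Mx2, and smaller for Irf7 and Isg15. Without oxaliplatin replicate 4, Mx1 and Mx2 had log2 fold changes of -0.05 and -0.15.

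After paclitaxel 0 of the 10 genes were called by edgeR, 0 had an unadjusted p under 0.05, and 0 were called by DESeq2 or any other of the 22 alternatives. The background was 0.12% of genes called, 0.0822% higher and 0.038% lower, and 17.1% with an unadjusted p under 0.05. Isg20 had the smallest p (log2 fold change 0.50 ± 0.26, adjusted p = 0.320, edgeR), and Ifi27l2b a log2 fold change of -0.04 ± 0.08. None of the 10 genes had paclitaxel libraries wholly apart from vehicle, against 6.96% of all genes tested. The log2 fold changes of the remaining 8 genes lay between 0.08 and 0.40, and the median of all 10 was 0.19, against -0.01 over all genes. That small shift rests on paclitaxel replicate 3. Without it Irf7 had -0.08, Isg15 -0.12, Mx1 -0.34, Mx2 -0.01, Oas1a -0.20, Ifit2 -0.26, Ifit3 -0.57 and Rsad2 -0.32.

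The 2 drugs were also compared directly, which asks whether their effects differ. Isg20 had a mean of 3.20 ± 0.899 CPM after oxaliplatin and 1.76 ± 0.372 CPM after paclitaxel, a 1.81-fold higher level (log2 fold change 0.86 ± 0.24, adjusted p = 0.0373, edgeR). Ifi27l2b was 1.42-fold lower after oxaliplatin (-0.51 ± 0.08, adjusted p = 0.00370). These were 2 of the 10 genes, against a background of 11.3% of all genes called, 6.6% higher and 4.71% lower (1044 and 744 genes, or 1499 and 293 with scaling by library totals only). With Rsad2, 3 of the 10 had an unadjusted p under 0.05, against 29.4% of all genes. The same 2 genes had groups that did not overlap, against 15.3% of all genes. The call of Isg20 was the less stable, being kept in 14 of 22 alternatives and in 6 of 12 analyses that left out a library. It was lost without oxaliplatin replicate 1, 3 or 4, paclitaxel replicate 2 or 3, or vehicle replicate 1 (adjusted p from 0.0506 to 0.105, edgeR). Rsad2 had a log2 fold change of 0.86 ± 0.37 (adjusted p = 0.139, edgeR), which became 1.38 ± 0.27 with an adjusted p of 0.0241 without paclitaxel replicate 3. The other 7 genes lay between -0.01 ± 0.20 for Mx2, which was at 0.07 with scaling by library totals only, and 0.48 ± 0.40 for Irf7.

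**Figure D2:**
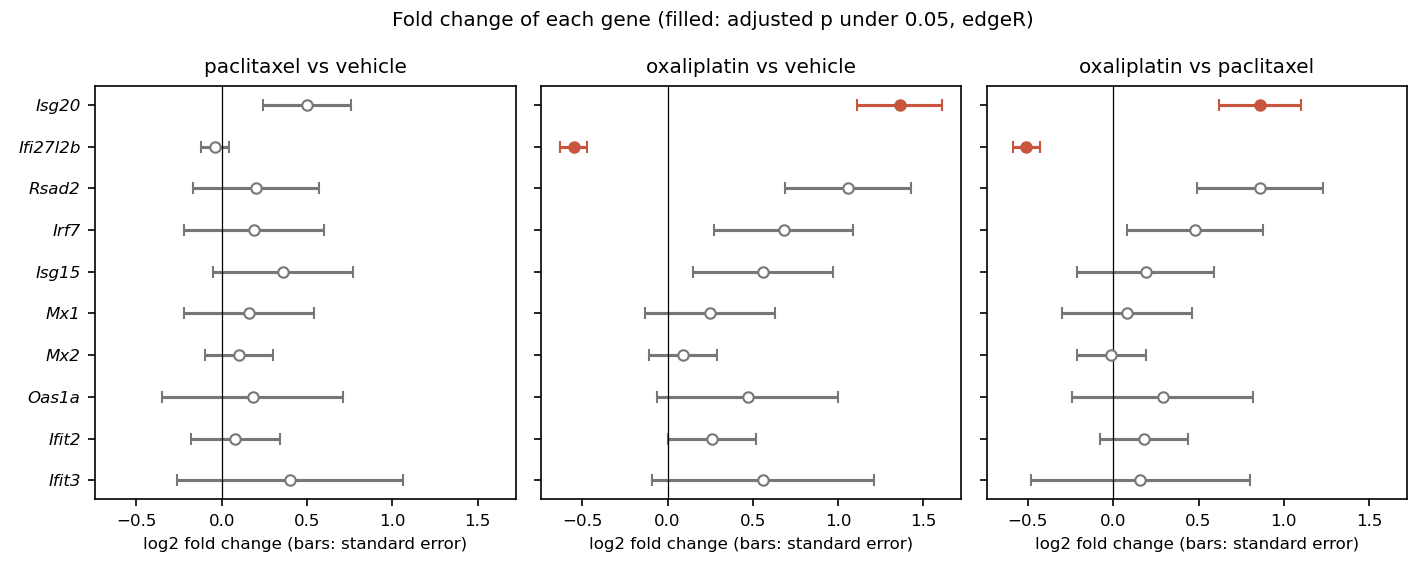
Log2 fold change of each of the 10 genes (points) with its standard error (bars) in the 3 comparisons, filled where the adjusted p was under 0.05. Isg20 and Ifi27l2b are filled in the comparisons that include oxaliplatin, on opposite sides of 0, and no gene is filled for paclitaxel against vehicle.

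In most drug libraries Irf7, Isg15, Mx1, Mx2, Oas1a, Ifit2 and Ifit3 rose or dropped as a block. This group of 7 was picked after the values were seen, so the following is a description. In paclitaxel replicate 1 all 7 lay below every vehicle library, with a mean log2 difference of -0.95 from the vehicle mean. In paclitaxel replicate 3 all 7 lay above every vehicle library, with a mean of 0.99. Libraries of the same drug thus stood on opposite sides of vehicle. Replicates 2 and 4 of paclitaxel lay between them, at -0.24 and 0.25. Irf7 measured 8.10, 14.4, 26.1 and 19.8 CPM in paclitaxel replicates 1 to 4, and Isg15 3.14, 4.28, 11.8 and 6.33 CPM. Oas1a measured 2.42, 4.22, 9.35 and 5.98 CPM in the same libraries, and Ifit2 6.95, 7.69, 16.9 and 9.99 CPM. The regulator, the ubiquitin-like modifier and the effectors thus shared 1 order of libraries, with replicate 1 lowest, then 2, 4 and 3.

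The oxaliplatin libraries also lay on both sides of vehicle. Replicate 1 had a mean log2 difference of -0.53, with 6 of the 7 genes below every vehicle library, and replicate 4 had 1.12, with all 7 above. Replicates 2 and 3 had 0.40 and 0.10. In replicate 3 the 7 genes split, with 4 above every vehicle library and 1, Mx1, below. The 4 vehicle libraries stayed between -0.12 and 0.11. Mx1 measured 9.70, 15.9, 10.8 and 22.8 CPM in oxaliplatin replicates 1 to 4, against 11.5, 14.3, 11.7 and 12.3 CPM in vehicle. Mx2 measured 42.1, 55.7, 52.2 and 84.7 CPM against 57.8, 59.6, 45.9 and 57.6 CPM, and Ifit2 7.51, 13.2, 10.8 and 15.6 CPM against 10.3, 9.06, 10.8 and 9.18 CPM. In each of these genes replicate 1 was the lowest and replicate 4 the highest of the oxaliplatin libraries. Paclitaxel replicate 3 and oxaliplatin replicate 4 held the highest and second highest level of all 12 libraries for each of the 7 genes.

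**Figure D3:**
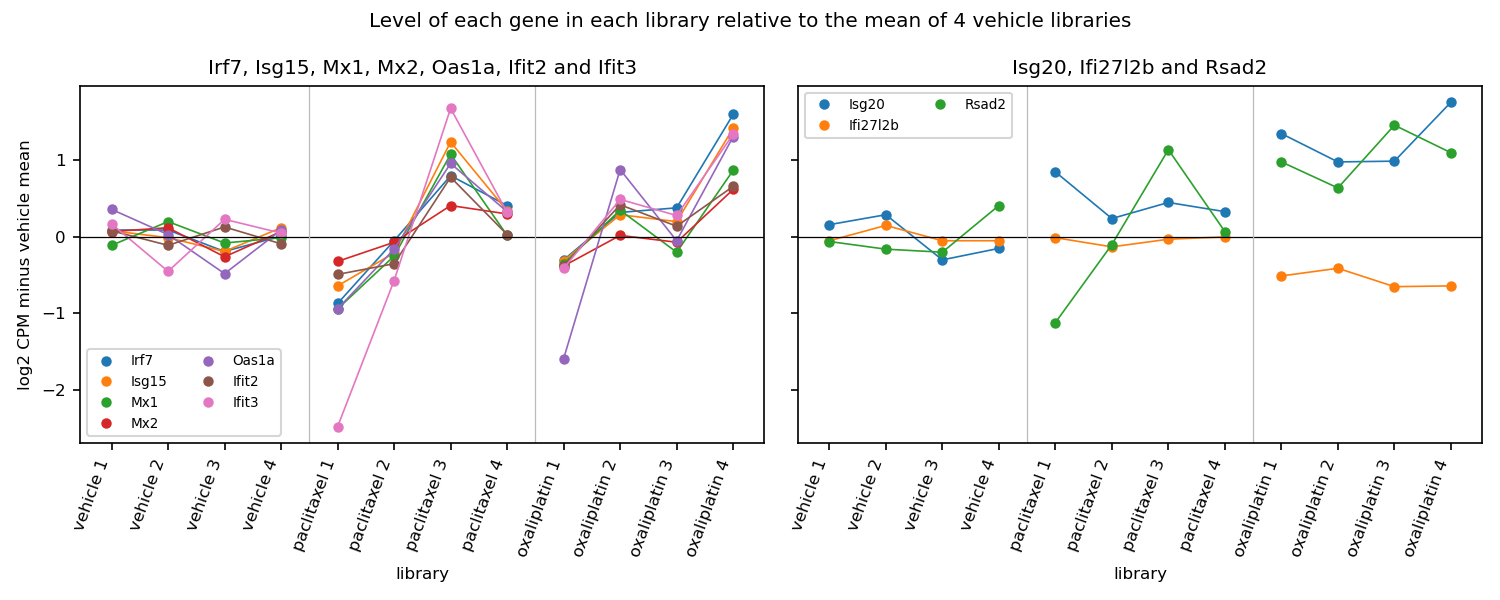
Log2 CPM minus the vehicle mean (vertical axis) in each of the 12 libraries (horizontal axis), for the 7 genes that moved together (left) and for Isg20, Ifi27l2b and Rsad2 (right); lines join the points of a gene within a group and mark no order. On the left all 7 genes lie below 0 in paclitaxel replicate 1 and oxaliplatin replicate 1 and above 0 in paclitaxel replicate 3 and oxaliplatin replicate 4.

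Ifit3 varied most. Its estimated count was 4 in paclitaxel replicate 1 and 106 in paclitaxel replicate 3, or 0.242 and 6.27 CPM, a ratio of 25.9. The other paclitaxel libraries had 1.23 and 2.38 CPM, and vehicle 2.14, 1.34, 2.23 and 1.95 CPM. Mx1 measured 6.41, 10.4, 26.4 and 12.6 CPM in paclitaxel replicates 1 to 4, and Mx2 44.1, 52.2, 73.0 and 67.6 CPM. The more abundant Mx2 thus varied less than Mx1 on a relative scale. In oxaliplatin the widest gene was Oas1a, whose highest library was 7.97 times the lowest. In vehicle the highest library was 1.15 to 1.81 times the lowest for all 10 genes. The median SD of log2 CPM over the 10 genes was 0.16 in vehicle, 0.76 in paclitaxel and 0.50 in oxaliplatin, and over all genes tested it was 0.14, 0.19 and 0.19. The difference in spread between groups was not tested.

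Across the 12 libraries Pearson's r of log2 CPM between the 7 genes lay between 0.72 and 0.96 over 21 pairs (median 0.87), and Spearman's rho between 0.58 and 0.96. All genes share the same libraries and their depth, so these values describe these 12 samples. After the group means were taken out, r lay between 0.75 and 0.97 (median 0.89), so the covariation was within groups. Paclitaxel replicate 3, with a mean log2 difference of 0.99 from vehicle, was kept in the next check, so r may still rest on few libraries. Without oxaliplatin replicate 4 and paclitaxel replicate 1, the libraries farthest from the median, r lay between 0.59 and 0.95. Rsad2 followed the 7 less closely, with r from 0.36 to 0.75, and from 0.00 to 0.46 without those 2 libraries.

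Isg20 and Ifi27l2b stood outside this block. Within groups, Isg20 had r from -0.29 to 0.28 with the other 9 genes and Ifi27l2b from -0.28 to 0.09. Over all 12 libraries the pair of them had r = -0.80, and 0.09 once the group means were taken out. The negative value thus reflects their opposite difference in the oxaliplatin group. In oxaliplatin replicate 1, where all of the 7 genes were below the vehicle mean, Isg20 was at 3.29 CPM and Rsad2 at 18.0 CPM, above every vehicle library.

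**Figure D4:**
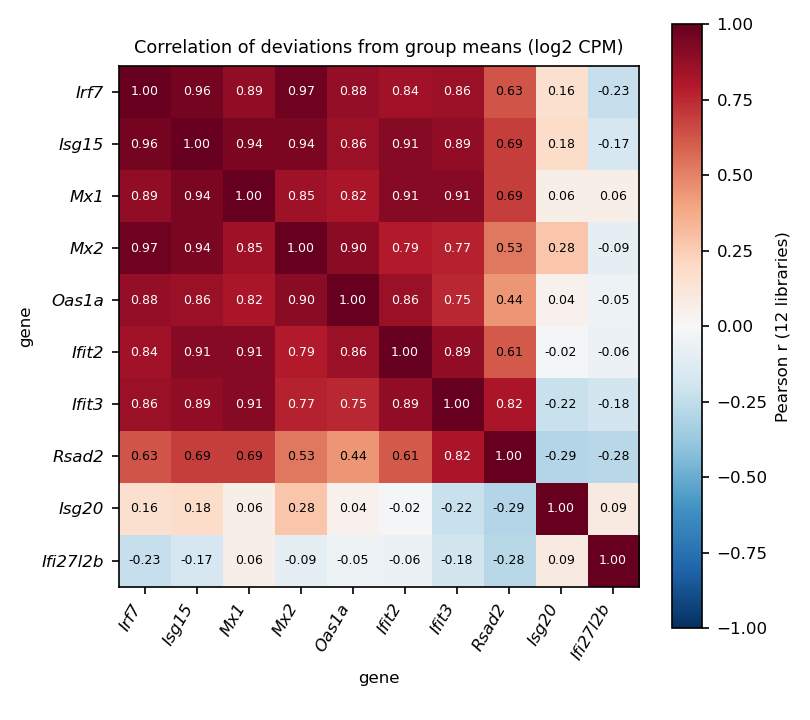
Pearson's r between the 10 genes over 12 libraries, computed on deviations of log2 CPM from the group means; colour runs from -1 to 1. The block of Irf7, Isg15, Mx1, Mx2, Oas1a, Ifit2 and Ifit3 has r of 0.75 to 0.97, Rsad2 has 0.44 to 0.82 with these genes, and Isg20 and Ifi27l2b stay near 0.

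Among the 14881 other genes whose mean log2 CPM reached 0, those most like the mean of the 10 (Pearson's r of standardised log2 CPM over 12 libraries) were Dhx58 (r = 0.964), Phf11 (0.926), Ddx58 (0.924), Rnf213 (0.904), Ddx60 (0.885) and Oasl2 (0.874). Dhx58 and Ddx58 encode the RNA sensors LGP2 and RIG-I, and all of these but Rnf213 were on the list of other pathway genes. The counts of Phf11, Ddx60 and Oasl2 were not whole in 12 of 12 libraries, so their values are uncertain. Those of Dhx58 and Ddx58 were whole in every library. Dhx58 had 4.92 to 6.24 CPM in vehicle. It had 2.90 and 9.47 CPM in paclitaxel replicates 1 and 3, and 3.41 and 13.5 CPM in oxaliplatin replicates 1 and 4. The libraries that were low and high for the 7 genes were therefore low and high for Dhx58. Genes most like Isg20 were Gtse1 (r = 0.933), a cell cycle gene, and Zmat5 (0.919), and those most like Ifi27l2b were Hebp2 (0.975) and Kcnv1 (0.964), a potassium channel subunit.

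Of 117 other interferon pathway genes tested, 23 (19.7%) had r of at least 0.70 with the mean of the 7 genes, against 83 of 15802 genes in all (0.525%). The threshold was chosen after the values were seen. Within groups the counts were 33 (28.2%) and 355 (2.25%). The 23 included Usp18, a protease that removes Isg15 and dampens receptor signalling (r = 0.89), Irf9 (0.77), Parp14 (0.81) and Herc6 (0.88), the ligase that attaches Isg15 in mice. With the group means left in, none of the 6 interferon receptor genes and none of the 13 antigen presentation and chemokine genes reached 0.70. Nor did any of the 6 genes on the list of other IRF factors, which does not hold Irf9. Within groups 2 of the 13 antigen presentation and chemokine genes reached it, Psmb9 (0.76) and Cxcl10 (0.70).

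The other genes of the pathway were taken from a list of 132 genes arranged by role, of which 128 were in the files and 117 could be tested. Of 11 interferon ligand genes 7 were in the files and none passed the filter. Ifna1, Ifna2, Ifna4, Ifna11, Ifnb1 and Ifnk were each listed in 1 library with an estimated count of 1, and Ifne in 9 libraries with at most 4. Interferon transcripts were thus at the limit of what this depth can show, in all groups.

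After oxaliplatin 89 of the 117 pathway genes (76.1%) had a log2 fold change above 0 and 28 below. Over all genes tested 51.7% lay above 0. The median was 0.16, against 0.01 over all genes tested, and 2 pathway genes were called, both higher. Ikbke, a kinase that activates Irf3 and Irf7, rose from 6.41 ± 1.04 to 10.9 ± 2.01 CPM (0.77 ± 0.16, adjusted p = 0.0298, edgeR). Ifitm3, a membrane protein that blocks viral entry, rose from 46.8 ± 7.15 to 83.4 ± 12.8 CPM (0.83 ± 0.18, adjusted p = 0.0353), and its counts were not whole in 12 of 12 libraries. Ikbke was called in 14 and Ifitm3 in 11 of 22 alternatives. Each of 6 single libraries ended the call of Ikbke when left out (vehicle replicate 1, 2 or 4, oxaliplatin replicate 1, 3 or 4), and each of 9 that of Ifitm3 (vehicle replicate 1, 2 or 4, paclitaxel replicate 2 or 3, and every oxaliplatin replicate). The share called, 2 of 117 genes, stood beside 1.76% of all genes tested. By role, 14 of 16 sensing genes, 50 of 64 other antiviral genes, 11 of 13 antigen presentation and chemokine genes and 5 of 6 signalling genes had values above 0. Those above 0 were 2 of 6 receptor genes, 4 of 6 other IRF genes and 3 of 6 negative regulators. Irf1, a transcription factor, went from 9.89 ± 1.43 to 14.6 ± 1.60 CPM and missed the threshold (0.56 ± 0.13, adjusted p = 0.0538). The receptor gene Ifnar1 had a log2 fold change of -0.02 ± 0.06 and Ifnlr1 of 0.43 ± 0.26. Among cell markers after oxaliplatin, 1 of 11 neuronal and 3 of 15 macrophage markers had values above 0, and 2 neuronal markers were called lower. Values above 0 were found for 8 of 9 endothelial, 9 of 9 erythroid and 8 of 8 B and plasma cell markers. The part of these cells in the pathway values was not tested.

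After paclitaxel the pathway genes leaned the other way, with 39 values above 0 (33.3%, against 47.9% of all genes tested) and 78 below. Their median was -0.08, against -0.01 over all genes tested. No pathway gene was called by edgeR, and 18 of 117 had an unadjusted p under 0.05, against 17.1% of all genes. DESeq2 called 2 (1.75%, against 1.63% of all genes) and limma voom with quality weights 12 (10.3%, against 12.8%). Without paclitaxel replicate 4, edgeR called 11, 2 higher and 9 lower, which is 9.4% against 10.2% of all genes. These counts were near the background of the same fits. The smallest p belonged to Tlr7, a sensor of RNA in endosomes, with 5.34 ± 1.65 CPM in vehicle and 2.28 ± 0.820 after paclitaxel (-1.22 ± 0.27, adjusted p = 0.137, edgeR). Oasl, of the oligoadenylate synthetase family, went the other way, with 2.63 ± 0.0925 and 4.27 ± 1.30 CPM (0.70 ± 0.24, adjusted p = 0.229). These 2 were named after their values were seen. Of the genes named by rule, Epsti1 had 2.89 ± 0.581 CPM in vehicle and 1.58 ± 0.390 after paclitaxel (-0.87 ± 0.22, adjusted p = 0.190, edgeR). Aim2, a sensor of DNA, had 0.504 ± 0.155 and 0.192 ± 0.1003 CPM (-1.36 ± 0.45, adjusted p = 0.218), and Ptpn6, a phosphatase of blood cells, 14.0 ± 2.72 and 8.54 ± 2.44 CPM (-0.71 ± 0.25, adjusted p = 0.232). Values above 0 were found for 2 of 16 sensing genes and 18 of 64 other antiviral genes, but for 5 of 6 receptor genes. All 15 macrophage markers had values below 0 after paclitaxel, and their sum was 209 to 416 CPM against 463 to 806 CPM in vehicle. Its part in the pathway values was not tested.

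Between the drugs, 94 of the 117 genes (80.3%) had higher values after oxaliplatin, against 50.6% of all genes tested. The median log2 fold change of the 117 was 0.29, against 0.00 over all genes tested. In the test 13 were called higher and 3 lower, 16 of 117 against 11.3% of all genes. By role the sensing genes Aim2 (1.88 ± 0.43), Ikbke (0.66 ± 0.16) and Ifih1 (0.57 ± 0.14), the sensor MDA5, were higher after oxaliplatin. So were the transcription factors Irf5 (0.68 ± 0.14) and Irf1 (0.49 ± 0.13) and the phosphatase Ptpn6 (1.01 ± 0.25). Among antiviral genes Slfn13 (1.20 ± 0.19), Epsti1 (1.09 ± 0.22), Ifitm3 (0.85 ± 0.18) and Bst2 (0.74 ± 0.19), the tether of budding virus, were higher, as were the immunoproteasome subunits Psmb8 (0.74 ± 0.17) and Psmb9 (0.70 ± 0.17). The kinase Jak1 (-0.27 ± 0.08) was among those lower. Trim5 (0.71 ± 0.21) and Stat3 (-0.27 ± 0.08), named after their values were seen, were called too. Adjusted p-values of these genes ran from 0.00424 for Slfn13 to 0.0494 for Jak1 (edgeR). Aim2 was a very low gene, at 0.0587 to 0.290 CPM after paclitaxel and 0.460 to 1.02 CPM after oxaliplatin. Its counts were not whole in 7 libraries, and its log2 fold change ran from 0.35 to 2.31 over 21 alternatives. Irf5, Ifitm3, Slfn13 and Epsti1 were called in 22 of 22 alternatives. Each of the other 12 called genes lost its call without at least 1 library, and the number of pathway genes called ran from 6 without oxaliplatin replicate 3 (5.08%, against 3.59% of all genes) to 31 without paclitaxel replicate 4 (26.5%, against 21.7%). The count of pathway genes thus went up and down with that of all genes. Cell markers also differed between the drugs. The macrophage sum was 209 to 416 CPM after paclitaxel and 499 to 610 CPM after oxaliplatin, the erythroid sum 1158 to 2832 and 4811 to 16248 CPM, and the neuronal sum 18651 to 28082 and 12927 to 17357 CPM. None of these ranges overlapped between the drugs, and their part in the pathway values was not tested.

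**Figure D5:**
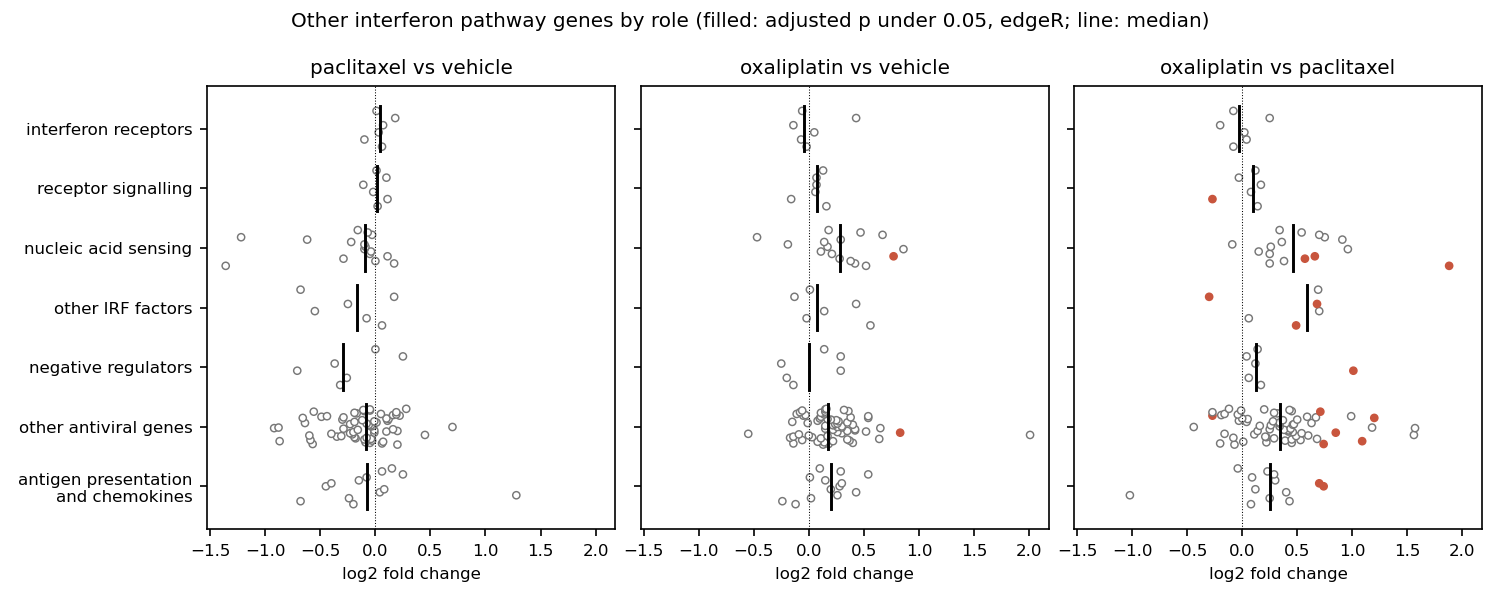
Log2 fold change of each of the 117 other pathway genes tested (points, filled where the adjusted p was under 0.05) by role in the 3 comparisons, with the median of each role as a line. Filled points are few against vehicle, 0 after paclitaxel and 2 after oxaliplatin, and 16 between the drugs.

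Sums of cell markers, mostly of immune cells, are given for the libraries in which the 7 genes were low and high. The 15 macrophage markers summed to 209 CPM in paclitaxel replicate 1 and 371 CPM in paclitaxel replicate 3. In oxaliplatin replicates 1 and 4, which were low and high for the 7 genes, the sums were 535 and 499 CPM. The macrophage sum was thus lower where the 7 genes were low in the paclitaxel pair, and slightly higher there in the oxaliplatin pair. Markers of plasmacytoid dendritic cells, a main source of interferon, summed to 33.7 and 44.3 CPM in paclitaxel replicates 1 and 3 and to 86.0 and 70.1 CPM in oxaliplatin replicates 1 and 4. Of that list 8 of 9 markers were in the files, one of them the interferon-stimulated Bst2, and the defining markers Siglech, Ccr9 and Ly6d were at 0 in at least 1 library. Neutrophil markers summed to 15.4 and 33.6 CPM in the paclitaxel pair and to 95.6 and 37.9 CPM in the oxaliplatin pair, and T and NK cell markers to 22.0 and 31.6 CPM and to 37.0 and 31.0 CPM. All 4 sums were thus lower in the low library of the paclitaxel pair and higher in the low library of the oxaliplatin pair. Satellite glial markers summed to 6752 and 4678 CPM in the paclitaxel pair and to 7299 and 5017 CPM in the oxaliplatin pair. Fibroblast markers summed to 2317 and 2101 CPM and to 4127 and 3725 CPM. These sums and the endothelial sum were higher in the low library of both pairs. The B and plasma cell, erythroid, Schwann cell and neuronal sums changed direction between the pairs. These are single libraries, and the part of any of these cells in the levels of the 7 genes was not tested.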

How the data were processed

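BGISEQ-500 kit libraries were made from Trizol-extracted total RNA of rat ganglia, per the labels' protocols, which do not state strand, so sense and antisense reads cannot be told apart. The authors deposited for each library the expected count (an estimated count that need not be whole) and the FPKM of each gene, per the file headers. CASAVA 1.4 and Bowtie2 are named in the submitters' processing notes; the quantifier, its settings and the genome build are not given in the sources used here. No listed FPKM is under 0.01; a gene missing from a table counts as 0.

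Groups and replicate numbers came from the sample titles. Rounded expected counts entered edgeR 4.0.16 (R 4.3.3; default expression filter, TMM, robust quasi-likelihood fit of 3 group means over 12 libraries, 9 residual degrees of freedom). The filter kept 15809 genes and set aside 4343. CPM are TMM-scaled, and log2 CPM used a prior count of 2. A count within 0.001 of a whole number was taken as whole. No 2 libraries of the same group agreed within sampling noise, and pairs between groups were not checked. Alternatives were DESeq2 1.42.0, RLE size factors, library totals only, no filter, limma 3.58.1 voom with quality weights, limma on log2(FPKM + 1) or log2(FPKM + 0.1) with a mean FPKM of at least 0.1, log2(FPKM + 1) without filter, a replicate block, only the 2 groups compared, and leaving out each of 12 libraries. The procedures were tested on simulated data.

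The 10 genes and all lists were chosen with earlier results of these data known. Named are the 10 genes; of each role list the called genes (at most 4 per comparison, by smallest p), otherwise the gene with the smallest p in each comparison with vehicle; the 6 genes most like the mean of the 10; and the 2 most like each called gene. Which of these get a sentence, and the genes named for following the group of 7, were chosen after the values were seen. A few genes covered by this rule are not reported here. RefSeq promoter windows were looked up by NCBI gene ID and were at hand for 6 of the 10 genes.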

Additional observations from a re-analysis of the deposited data

Results flagged for a closer look

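Each of the 10 genes was checked in each group of 4 libraries for a library far from the others, 30 checks in all, of which chance flags about 1 in 20. In 2 of them the gap to the nearest library, divided by the range, exceeded Dixon's critical value for 4 samples. Ifi27l2b was at 155 CPM in vehicle replicate 2, against 136 CPM in each of the other vehicle libraries (ratio 0.989). Mx2 was at 45.9 CPM in vehicle replicate 3, against 57.6 to 59.6 CPM in the others (ratio 0.850). Without vehicle replicate 2 the fall of Ifi27l2b after oxaliplatin was -0.50 ± 0.08 on the log2 scale and kept its call.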

How the results depend on the processing

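The 22 alternatives gave 660 re-estimated fold changes of the 10 genes: 606 kept their direction and their side of the threshold, 40 changed sign, 11 lost a call and 3 gained one. The 40 sign changes were all of uncalled values. Scaling moved the median of all genes by at most 0.08 on the log2 scale.

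Of the 10 genes, those called numbered 2 after oxaliplatin and 2 between the drugs, with 1 to 2 in each when a library was left out. With only the 2 groups compared, 1 was called between the drugs. Pathway genes called are given with their share and, after a slash, the share of all genes called in the same fit. After paclitaxel (0) they were 2 with DESeq2 (1.75%/1.63%), 12 with voom (10.3%/12.8%) and 0 to 11 without a library (11: 9.4%/10.2%). After oxaliplatin (2) they were 4 with DESeq2 (3.42%/5.44%), 1 with log2(FPKM + 1) without filter (0.781%/1.28%), 1 with only the 2 groups compared (0.855%/1.03%) and 0 to 2 without a library. Between the drugs (16, 13.7%/11.3%) they were 37 with voom (31.6%/29.9%), 8 with only the 2 groups compared (6.9%/6.53%) and 6 to 31 without a library (5.08%/3.59% and 26.5%/21.7%).

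The labels share replicate numbers but give no pairing. Same-numbered libraries deviated together with r from -0.23 to 0.16, over 0.1 in 1 of 12 pairs. Of the 12 libraries, 2 correlated best with their own number. No pairing was seen in these values, which cannot show that none exists. With the replicate block, genes called of the 10 were 1 after oxaliplatin and 1 between the drugs (Isg20 had adjusted p-values of 0.0525 and 0.0645, edgeR), and pathway genes called after oxaliplatin were 0 (0.455% of all genes were called).

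Paclitaxel against vehicle, without a library: Ifi27l2b -0.06 to 0.01, Ifit2 -0.26 to 0.23, Ifit3 -0.57 to 0.78, Irf7 -0.08 to 0.43, Isg15 -0.12 to 0.59, Mx1 -0.34 to 0.40, Mx2 -0.01 to 0.22, Oas1a -0.20 to 0.43, Rsad2 -0.32 to 0.46, Irf1 -0.04 to 0.14 and Ifitm3 -0.14 to 0.15. Oxaliplatin against vehicle, without a library: Mx1 -0.05 to 0.40 and Mx2 -0.15 to 0.22. Oxaliplatin against paclitaxel, without a library: Ifit3 -0.25 to 1.13, Irf7 -0.04 to 0.76, Isg15 -0.29 to 0.67, Mx1 -0.21 to 0.59, Mx2 -0.25 to 0.12 and Oas1a -0.15 to 0.67. On FPKM with pseudocounts of 1, 0.1 and 1 without filter, paclitaxel gave Ifit2 -0.03, -0.05 and -0.03, Mx1 -0.02, -0.06 and -0.02, and Ifnar1 values that rounded to -0.00; with 0.1 it gave Ifit3 -0.24 and Rsad2 -0.04. Between the drugs Mx2 was 0.03 in all 3, and 0.07 with library totals only, which gave Ifnar1 0.00, and 0.02 after oxaliplatin. With voom Ifit3 was -0.05 after paclitaxel and Mx1 -0.01 between the drugs. The cause of these changes was not tested. Precision is that of 4 libraries a group, and Isg20 and Ifit3 rest on at most 79 and 106 reads in any library.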
